A study of Homo sapiens with 4 samples.

Results

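The Wnt signalling and RANKL paracrine genes were a set of 52 genes, chosen by name from the gene column of the expression tables, among 23287 genes listed there. They comprised 10 Wnt ligands and RANKL (TNFSF11), 16 receptors, 10 inhibitors and 15 intracellular components. Expression was measured by RNA-seq in T47D cells, a human breast cancer cell line of luminal type that carries the progesterone receptor (PR), at passages 5-8. The cells were kept in charcoal-stripped serum for 24 h and treated for 3 h with 10 nM R5020, a synthetic progestin, or with ethanol vehicle (EtOH). Each condition was represented by 1 RNA library, so spread between cultures could not be assessed and differences are described without tests. PR binding sites came from 1 chromatin immunoprecipitation (ChIP-seq) library of T47D cells held in stripped serum for 3 days and treated with 10 nM R5020 for 1 h.

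Wnt proteins are secreted ligands that bind Frizzled receptors together with the LRP5 and LRP6 co-receptors. In the canonical branch, receptor engagement recruits Dishevelled and disables the complex of AXIN, APC and GSK3 that marks beta-catenin for destruction, and beta-catenin then works with TCF/LEF factors on target genes. In the mammary gland, progesterone-responsive luminal cells are known to signal to neighbouring cells through WNT4 and through RANKL, the ligand of RANK, whereas osteoprotegerin is a soluble decoy for RANKL.

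Expression is given as FPKM, in which fragment numbers are scaled to transcript length and library size, summed over the transcripts of a gene. A gene was retained when it reached 1 FPKM in at least 1 library, and it was called at a 1.5-fold difference of FPKM + 1, which is 0.58 on the log2 scale. The listed transcripts held the equivalent of 35151493 (EtOH) and 36203604 (R5020) reads of 50 nt, calculated from coverage and transcript length. These totals are not the sequencing depths: the study reported more unique reads for each library, and more for EtOH than for R5020. The median log2 ratio over 10225 genes at 1 FPKM or more in both libraries was 0.01. The luminal markers PGR, ESR1, GATA3, FOXA1, KRT19 and EPCAM were retained, and 4 of these 6 were lower in R5020 at 1.5-fold, namely FOXA1 (64.3 FPKM in EtOH and 14.7 in R5020), GATA3 (253 and 126), ESR1 (17.2 and 10.9) and PGR (23.7 and 15.3). Their part in the values of the members was not tested. Of the other cell types, 0 of 4 leukocyte, 0 of 3 endothelial, 2 of 5 basal and 2 of 5 fibroblast markers were retained. The fibroblast markers COL1A1 (5.12 FPKM in EtOH and 3.31 in R5020) and LUM (2.54 and 1.66) were detected, while COL1A2 and COL3A1 were listed at 0. FKBP5, a classical progestin-responsive gene, measured 15.9 FPKM in EtOH and 86.6 in R5020. In such bulk samples, fewer expressing cells and less RNA per cell cannot be told apart. The luminal keratins KRT8 and KRT18 were listed at 0 in EtOH with a failed status and at 285 and 174 FPKM in R5020, so an exact 0 could mark a failed estimate, although the member transcripts carried the status OK.

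PR binding sites near the members are shown first, with the score given by the MACS peak caller, -10 times log10 of its p-value. Coordinates are on hg19 (GRCh37) and the forward strand. Each sequence is a stretch of the highest-scoring site within 50 kb of the member, and capitals mark AGAACA or TGTTCT, the 6-base arm of the progesterone response element. Sites of DIXDC1, FZD1, WNT9A, RNF43 and TCF7L2 are shown because these members passed the 1.5-fold threshold, and those of LRP5 and CTNNB1 because, with that of DIXDC1, they had the highest scores among all members. The DIXDC1 stretch is chr11:111852846-111852965, in an intron of the gene, from a site with a score of 322. The FZD1 stretch is chr7:90892775-90892894, upstream of the gene, from a site with a score of 85.8. The WNT9A stretch is chr1:228105041-228105160, from an intergenic site with a score of 92.2 lying 3861 bases beyond the gene's 3' end.
DIXDC1 site: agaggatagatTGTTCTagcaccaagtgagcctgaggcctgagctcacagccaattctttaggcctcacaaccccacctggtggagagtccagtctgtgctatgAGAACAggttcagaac
FZD1 site: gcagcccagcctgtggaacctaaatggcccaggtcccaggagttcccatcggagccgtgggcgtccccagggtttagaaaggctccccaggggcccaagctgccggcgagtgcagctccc
WNT9A site: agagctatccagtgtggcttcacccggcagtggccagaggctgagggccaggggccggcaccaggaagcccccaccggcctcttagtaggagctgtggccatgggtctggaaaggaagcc

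The sites of the 2 members with lower expression lay farther from the genes than those shown for DIXDC1, FZD1 and WNT9A. They lay nearer than the nearest sites of LEF1 and FZD5, which were also higher, at 258 kb and 119 kb. The RNF43 stretch is chr17:56386343-56386589, from a site with a score of 102 in a coding exon of TSPOAP1, 44410 bases from RNF43. The TCF7L2 stretch is chr10:114674519-114674638, from an intergenic site with a score of 74.5, 35.4 kb upstream of the gene.
RNF43 site: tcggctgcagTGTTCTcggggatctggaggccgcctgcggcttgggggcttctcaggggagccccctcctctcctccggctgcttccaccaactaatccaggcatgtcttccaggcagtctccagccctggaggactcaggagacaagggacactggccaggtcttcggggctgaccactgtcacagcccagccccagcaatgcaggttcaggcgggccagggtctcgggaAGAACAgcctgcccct
TCF7L2 site: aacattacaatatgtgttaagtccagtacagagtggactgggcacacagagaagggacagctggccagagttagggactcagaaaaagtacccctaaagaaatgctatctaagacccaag

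The remaining pair belonged to members that did not pass the expression threshold. The LRP5 stretch is chr11:68228353-68228472, in an intron of the neighbouring PPP6R3, from a site with a score of 197. The CTNNB1 stretch is chr3:41240760-41240879, from a site with a score of 161 that spans the start of the gene. LEF1 and FZD5, which had large increases in expression, had no site within 50 kb and so no sequence.
LRP5 site: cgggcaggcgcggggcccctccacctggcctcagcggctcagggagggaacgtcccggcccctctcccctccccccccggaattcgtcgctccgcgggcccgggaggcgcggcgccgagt
CTNNB1 site: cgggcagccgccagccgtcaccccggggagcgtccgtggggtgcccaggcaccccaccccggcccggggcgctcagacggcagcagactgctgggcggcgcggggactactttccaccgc

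Of the 52 members, 28 (53.8%) were retained, against 11018 of 23287 genes (47.3%) in the whole table. Of these 28, 5 (17.9%) were higher in R5020, namely LEF1, DIXDC1, FZD5, FZD1 and WNT9A, while 7.67% of all retained genes were higher. TCF7L2 and RNF43 were lower, which is 2 of 28 (7.14%), while 4.14% of all retained genes were lower. The members were chosen with earlier results of these data known, so these shares are descriptive only. At a 2-fold threshold on FPKM + 1, 4 members were higher, against 3.43% of retained genes, and 0 were lower, against 1.31%. Without a pseudocount the log2 ratios of RNF43, TCF7L2 and WNT9A were -1.08, -1.07 and 1.14, which lie beyond 2-fold. The other 21 retained members differed by less than 1.5-fold. The median log2 ratio of the retained members was -0.07, with 11 above and 17 below 0, and that of all retained genes was 0.01. The 24 members that were not retained comprised 6 listed at 0 in both libraries and 18 with low values.

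**Figure D1:**
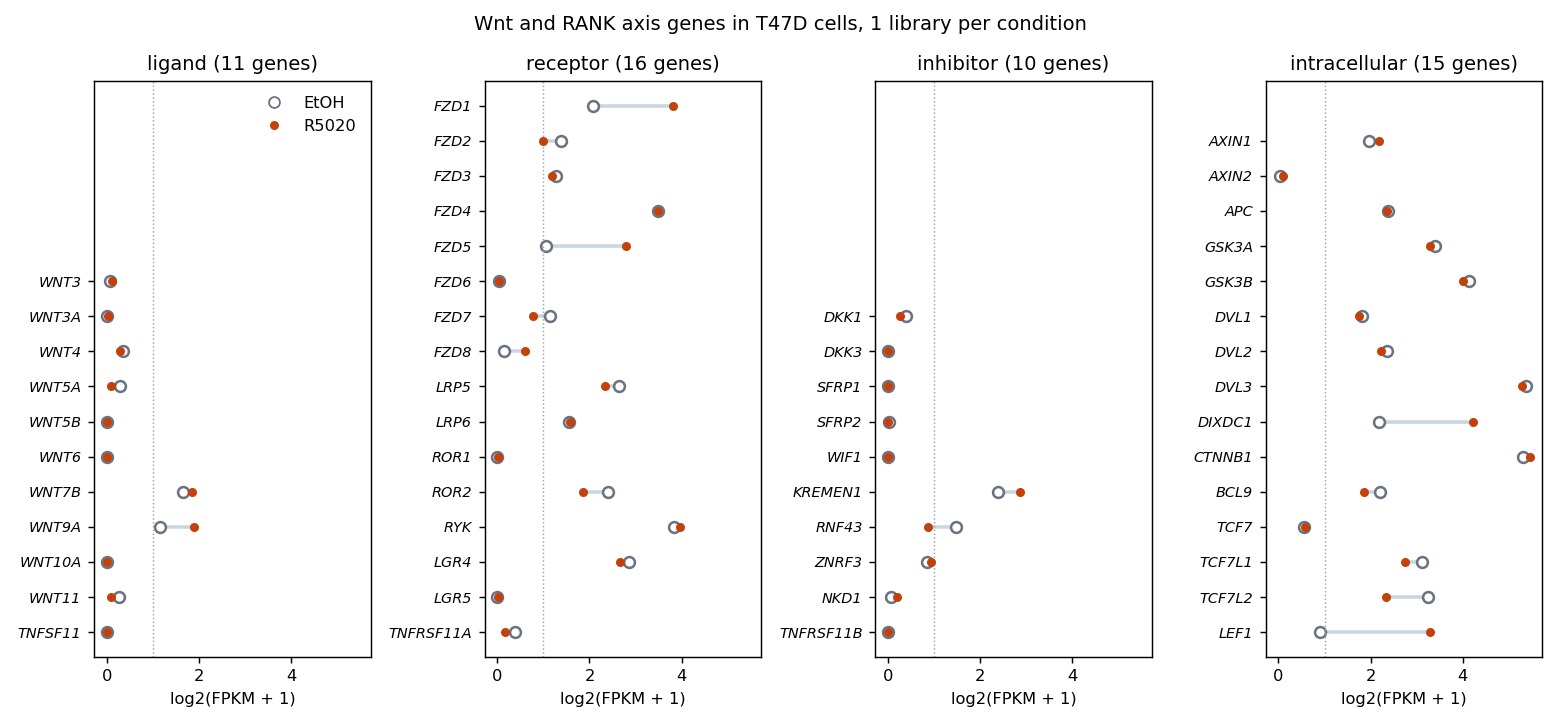
Expression of the member genes in the EtOH and R5020 libraries, as log2(FPKM + 1), with 1 point per gene and library (open for EtOH, filled for R5020) and a dotted line at 1 FPKM. LEF1 (0.871 to 8.76 FPKM), FZD5 (1.07 to 5.95), FZD1 (3.25 to 13.1) and DIXDC1 (3.53 to 17.5) show the widest gaps upward and TCF7L2 (8.49 to 4.05) the clearest gap downward.

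Among the ligands, WNT9A and WNT7B were the 2 of 11 that were retained. WNT9A, a Wnt ligand known from joint development, measured 1.24 FPKM in EtOH and 2.74 FPKM in R5020, a log2 ratio of 0.74 on about 144 and 293 read equivalents. This was the smallest called increase among the members. The deposited interval for WNT9A, 0.378 to 0.886 in EtOH and 0.885 to 1.60 in R5020, did not contain the deposited FPKM value in either library, and with the interval midpoints the log2 ratio was 0.46, below the threshold. WNT7B, a canonical ligand expressed in epithelia, measured 2.14 FPKM in EtOH and 2.60 in R5020, a log2 ratio of 0.19 under the threshold.

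Apart from WNT9A and WNT7B, the Wnt ligands were low in both libraries, among them WNT4, which links progesterone to mammary paracrine signalling. WNT4 measured 0.272 FPKM in EtOH and 0.231 in R5020, on 98.2 and 82.4 read equivalents. WNT4 was therefore detected in both libraries at similar values, below the retention limit. WNT5A, a ligand of the non-canonical branch, measured 0.216 and 0.0714 FPKM on 129 and 38.9 read equivalents. WNT11, also mainly non-canonical, measured 0.199 and 0.0699 FPKM. Both non-canonical ligands had the lower value in R5020, without passing the retention limit. WNT3 measured 0.0514 and 0.0793 FPKM, WNT3A 0 and 0.0167, and WNT5B 0.0108 and 0. WNT6 and WNT10A were listed at 0 in both libraries, so no more than 2 of the 10 Wnt genes reached 1 FPKM.

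The RANKL axis was near the floor in these cells. TNFSF11, which encodes RANKL, was listed at 0 in EtOH and in R5020. TNFRSF11A, which encodes its receptor RANK, measured 0.312 FPKM in EtOH and 0.132 in R5020, on 89.7 and 40.0 read equivalents. TNFRSF11B, which encodes osteoprotegerin, measured 0.00634 FPKM in EtOH, which is 1.49 read equivalents, and 0 in R5020. RANK transcripts were thus detected at a low level, and an induction of RANKL was not detectable at this depth 3 h after R5020. The nearest PR sites lay 473 kb from TNFSF11, 138 kb from TNFRSF11A and 511 kb from TNFRSF11B.

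Of the 16 receptors, 11 were retained and the 2 called, FZD5 and FZD1, both belong to the Frizzled family, the cell-surface receptors of Wnt ligands. FZD5 measured 1.07 FPKM in EtOH and 5.95 in R5020, a log2 ratio of 1.75 on 671 and 3649 read equivalents. FZD1 measured 3.25 and 13.1 FPKM, a log2 ratio of 1.72 on 1350 and 5212 read equivalents. Ranked by log2 ratio, FZD5 stood at 116 and FZD1 at 119 of 11018 retained genes. For both, the deposited interval lay apart from the FPKM value (FZD1 in EtOH, 1.31 to 1.75), and the interval midpoints gave log2 ratios of 1.51 for FZD5 and 1.5 for FZD1.

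Among the other Frizzled genes none passed the threshold, and their values went in different directions. FZD4 had the highest level of the family in EtOH and measured 10.2 FPKM in both libraries. FZD2 measured 1.59 FPKM in EtOH and 0.998 in R5020 (log2 ratio -0.38), FZD7 1.2 and 0.704 (-0.37) and FZD3 1.43 and 1.27 (-0.10). These 3 genes had log2 ratios below 0 but under the threshold, and FZD2 and FZD7 passed it as lower with a pseudocount of 0.1 (-0.62 and -0.69) or none (-0.67 and -0.77). At the interval midpoints FZD2 (0.826 and 0.514 FPKM) and FZD7 (0.904 and 0.548) stayed below 1 FPKM in each library and were not retained. FZD8 measured 0.114 FPKM in EtOH and 0.528 in R5020, on 36.3 and 151 read equivalents, a linear ratio of 4.64 that lies between those of FZD1 (4.01) and FZD5 (5.57). The deposited intervals of FZD8 did not overlap (0 to 0.227 and 0.332 to 0.724), but the gene stayed below 1 FPKM and was not retained. FZD6 measured 0.0238 and 0.0321 FPKM and was not retained either. The 8 Frizzled genes together summed to 18.8 FPKM in EtOH and 32.7 FPKM in R5020. The make-up of this sum differed: FZD4 accounted for 53.9% in EtOH and 31.0% in R5020, FZD1 for 17.3% and 39.9%, and FZD5 for 5.68% and 18.2%. FZD1, FZD2, FZD4, FZD5 and FZD7 had FPKM values outside their own deposited intervals, in R5020 13.1 against 5.66 to 6.65 for FZD1 and 10.2 against 8.19 to 9.08 for FZD4. At the interval midpoints, chosen after the data were seen, FZD4 held the largest share in both libraries (61.1% and 39.8%), and FZD1 held 10.6% and 28.4% and FZD5 5.23% and 18.4% of sums of 14.4 and 21.7 FPKM. Which gene led in R5020 therefore depended on the value used, while the shares of FZD1 and FZD5 were higher in R5020 with either.

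**Figure D2:**
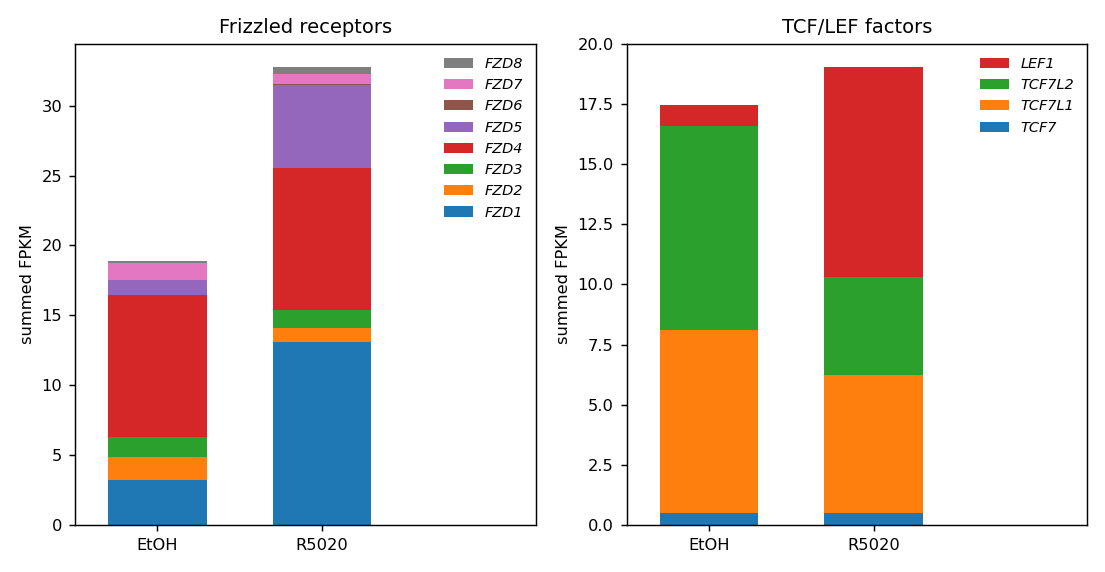
Summed FPKM of the Frizzled genes and of the TCF/LEF genes, as bars stacked by gene for the EtOH and the R5020 library, from FPKM as deposited. The full bars reach 18.8 and 32.7 FPKM for the Frizzled genes and 17.5 and 19.1 FPKM for the TCF/LEF genes. FZD1 goes from 17.3% to 39.9% of the Frizzled sum, and LEF1 from 4.98% to 46.0% of the TCF/LEF sum.

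The co-receptors and alternative Wnt receptors were below the threshold with a pseudocount of 1. LRP5 measured 5.20 FPKM in EtOH and 4.09 in R5020 (log2 ratio -0.28), and LRP6 1.93 and 1.98 (0.03). ROR2, a receptor tyrosine kinase for WNT5A, measured 4.32 and 2.62 FPKM, and its log2 ratio of -0.56 lay just outside the threshold, which it passed with a pseudocount of 0.1 (-0.70) or none (-0.72). RYK, a kinase-like Wnt receptor and the highest receptor of the set, measured 13.3 and 14.5 FPKM (0.12). LGR4, a receptor for R-spondins, measured 6.25 and 5.30 FPKM (-0.20). ROR1 was listed at 0 and 0.00745 FPKM and LGR5 at 0 and 0.0113 FPKM, so both were practically undetected. Summed over all 16 receptors, expression was 50.2 FPKM in EtOH and 61.4 in R5020, and without FZD1 and FZD5 it was 45.9 and 42.4.

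Inhibitors were sparsely expressed, with 2 of 10 retained. RNF43, a membrane ubiquitin ligase that removes Frizzled from the cell surface, measured 1.77 FPKM in EtOH and 0.841 in R5020, a log2 ratio of -0.59 on 760 and 352 read equivalents. With a pseudocount of 1 RNF43 lay just inside the threshold, and without one its log2 ratio was -1.08. It was retained through the EtOH library alone, so the call was lost when 1 FPKM was required in both libraries. KREMEN1, a receptor for Dickkopf proteins, measured 4.25 and 6.30 FPKM, with a log2 ratio of 0.48 under the threshold. ZNRF3, a close relative of RNF43, measured 0.799 and 0.918 FPKM, and NKD1, a Dishevelled-binding antagonist, measured 0.0422 and 0.151. Of the secreted antagonists, DKK1 measured 0.322 FPKM in EtOH and 0.205 in R5020 and SFRP2 0.0150 and 0, whereas DKK3, SFRP1 and WIF1 were listed at 0. The summed inhibitors measured 7.21 and 8.42 FPKM, a log2 ratio of 0.22 that KREMEN1 set, since it was -0.48 without that gene.

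The intracellular components were the most widely expressed, with 13 of 15 retained, and held the largest increase of the set. LEF1, a TCF/LEF transcription factor that beta-catenin binds, measured 0.871 FPKM in EtOH and 8.76 in R5020. Its log2 ratio was 2.38, on 253 and 2502 read equivalents, and it ranked 54 of 11018 retained genes. LEF1 was retained through the R5020 library alone, so it left the comparison when 1 FPKM was required in both. LOC641518, a listed gene that overlaps LEF1, was at 0 in both libraries. TCF7L2, another member of that family, measured 8.49 and 4.05 FPKM, a log2 ratio of -0.91 on 3058 and 1425 read equivalents. LEF1 and TCF7L2 therefore differed in opposite directions. TCF7L1 measured 7.64 and 5.75 FPKM (-0.36), and TCF7 0.475 and 0.491. The sum of the 4 factors was 17.5 FPKM in EtOH and 19.1 in R5020, a log2 ratio of 0.12. Within it LEF1 went from 4.98% to 46.0%, TCF7L2 from 48.6% to 21.2% and TCF7L1 from 43.7% to 30.2%, so the composition differed far more than the sum.

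DIXDC1, a DIX-domain protein that acts with Dishevelled as a positive regulator of Wnt signalling, ranked 85 of 11018. Most of the added FPKM lay in 1 of its transcripts. The shorter variant (NM_033425), which starts at chr11:111848033, measured 3.08 FPKM in EtOH and 15.9 in R5020, a log2 ratio of 2.06 on 1591 and 7974 read equivalents. The longer variant (NM_001037954), which starts at chr11:111807927, measured 0.450 and 1.58 FPKM, a log2 ratio of 0.83 on 253 and 859 read equivalents. Both variants were higher in R5020, and the shorter was the more abundant in either library. The pseudocount of 1 lowers the log2 ratio of the longer variant more, because its FPKM was low, so the 2 ratios are not directly comparable. The 3 Dishevelled genes did not accompany DIXDC1: DVL1 measured 2.52 and 2.38 FPKM, DVL2 4.11 and 3.69, and DVL3 40.4 and 37.9. All 3 had values above their own deposited intervals in each library, which for DVL3 were 21.1 to 22.8 in EtOH and 19.8 to 21.3 in R5020.

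Among the members, beta-catenin and the retained destruction complex genes were expressed at near-equal levels in both libraries. CSNK1A1, a kinase of the complex outside the set, was higher in R5020 (50.7 and 89.6 FPKM). CTNNB1, which encodes beta-catenin, measured 38.5 FPKM in EtOH and 42.8 in R5020 (log2 ratio 0.15). GSK3B measured 16.6 and 15.0 FPKM (-0.14), GSK3A 9.46 and 8.80 (-0.09), APC 4.19 and 4.11 (-0.02) and AXIN1 2.91 and 3.52 (0.21). AXIN2, a widely used target of canonical Wnt signalling, measured 0.0235 and 0.0638 FPKM, on 7.99 and 24.1 read equivalents, and was not retained. The 5 destruction complex genes of the set summed to 33.2 FPKM in EtOH and 31.5 in R5020. BCL9, a beta-catenin cofactor, measured 3.63 and 2.60 FPKM (-0.36).

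**Figure D3:**
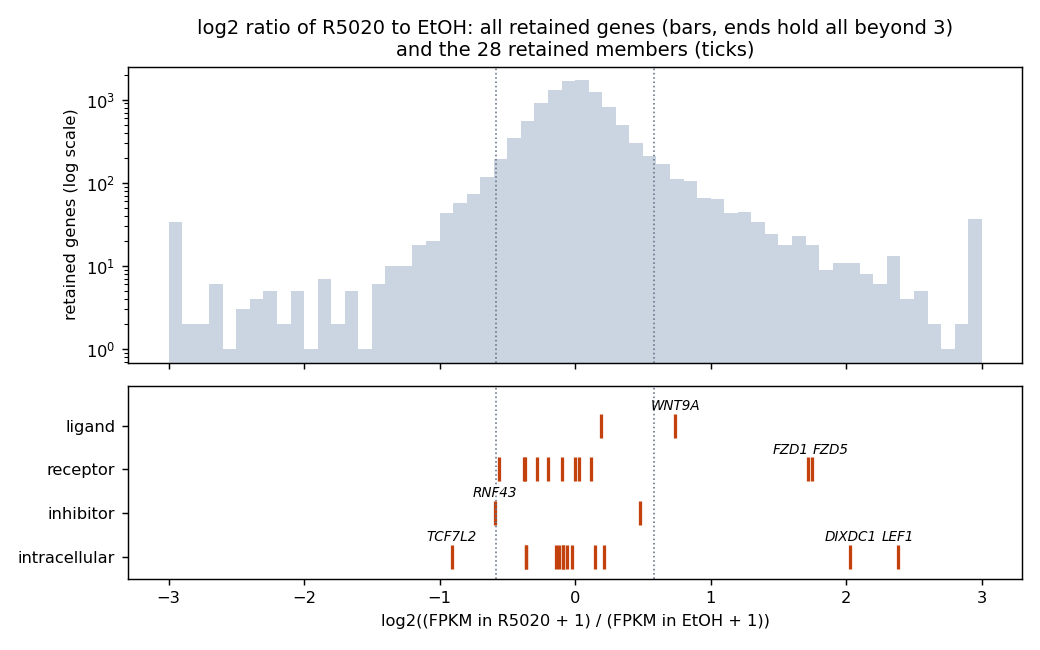
Distribution of the log2 ratio of R5020 to EtOH (FPKM + 1) over the 11018 retained genes, as bars on a log count axis whose end bars hold all genes beyond 3 in either direction, with ticks for the 28 retained members. Dotted lines mark 1.5-fold, and 5 members lie above the upper line (0.58) and 2 below the lower one.

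Summed by role, ligands measured 4.13 FPKM in EtOH and 5.81 in R5020 (log2 ratio 0.49), and intracellular components 143 and 158 (0.14). At the interval midpoints the log2 ratio was 0.28 for ligands, 0.16 for receptors (0.29 as deposited), 0.23 for inhibitors and 0.18 for intracellular components. The sum over the 52 members was 205 FPKM in EtOH and 233 in R5020, a log2 ratio of 0.19. The ligand sum was small beside the receptor and intracellular sums in both libraries. Because they are sums, the values follow the most abundant genes of each role, as the inhibitors showed.

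The members had 91 listed transcripts, of which 38 reached 1 FPKM in at least 1 library. Of these, 8 were higher at 1.5-fold, against 11.3% of 13625 transcripts retained in the whole table, and 5 were lower, against 8.34%. The transcript split is an estimate, since the variants of a gene share exons. Of the 4 LEF1 variants, 3 carried the increase: NM_016269 measured 0.293 FPKM in EtOH and 4.25 in R5020, NM_001130714 0.313 and 2.77, and NM_001166119 0.265 and 1.74. The increase of LEF1 was thus spread over several variants. In TCF7L2, NM_001146274 measured 3.68 and 0.761 FPKM (log2 ratio -1.41) and NM_001146284 2.09 and 1.01 (-0.62). NM_001198525 of the same gene was also lower, at 1.48 and 0.524 (-0.70), while NM_001146283 measured 1.24 and 1.08 (-0.11). NM_001198531 had the higher value in R5020, 0 and 0.678 FPKM, below the retention limit. The TCF7L2 variants thus differed in size and direction of change. In APC, whose gene sum hardly differed, NM_001127510 measured 1.04 and 0 FPKM and NM_000038 2.70 and 4.11. For 15 of the 38 transcripts the FPKM value lay outside its own deposited interval in each library.

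**Figure D4:**
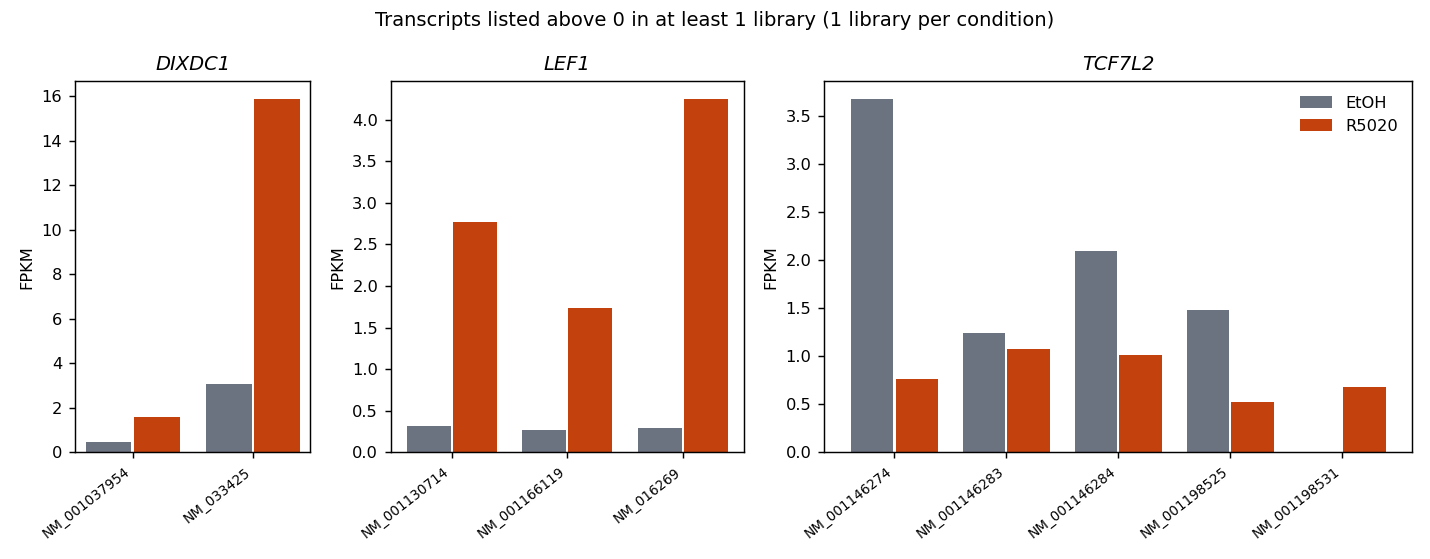
FPKM of the transcripts of DIXDC1, LEF1 and TCF7L2 listed above 0 in at least 1 library, as bars for the EtOH and the R5020 library with a separate axis for each gene. The shorter DIXDC1 variant goes from 3.08 to 15.9 FPKM while the longer one goes from 0.450 to 1.58, the LEF1 increase is shared by 3 variants, and NM_001146274 of TCF7L2 goes from 3.68 to 0.761.

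PR binding sites were compared with the positions of the members. Of the 52 members, 30 (57.7%) had at least 1 of the 11181 sites within 50 kb of the gene, against 45.7% of all genes. Longer genes have more sequence in which a site can fall, and the members had a median extent of 46.9 kb against 18.7 kb for all genes; the part of length in this share was not tested. Among retained members the share was 19 of 28 (67.9%), against 52.7% of retained genes. Of the called members, 3 of 5 higher and 2 of 2 lower had a site, against 61.4% and 61.0% of all retained genes called in those directions. Of the retained members under the threshold, 14 of 21 (66.7%) had a site, against 51.5% of all retained genes under it, and of the 24 members that were not retained 11 (45.8%) had one, against 39.5% of all genes not retained. By role, sites lay within 50 kb of 12 of 15 intracellular genes, 7 of 11 ligands, 6 of 10 inhibitors and 5 of 16 receptors. The number of members with a site depended on the distance allowed: 19 (36.5%) had one overlapping the gene, against 18.0% of all genes, 23 (44.2%) within 10 kb, against 27.5%, and 30 (57.7%) within 100 kb, against 57.2%. A site with a score of at least 100 lay within 50 kb of 10 members (19.2%), against 14.3% of all genes.

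The 84 distinct sites near members had a median score of 74.7, against 74.5 over all sites, and 11 scored 100 or more. By midpoint, 36 lay in introns, 30 between genes, 8 in coding exons, 8 in UTRs and 2 in other exons. The start of a listed transcript of a member was spanned by 4 (FZD1, DKK1, DIXDC1 and CTNNB1). A site near a gene does not show that the gene is its target: the site at RNF43 lay within TSPOAP1, and the highest-scoring site at LRP5 lay within PPP6R3, 148 kb from the LRP5 start.

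DIXDC1 and FZD1 were the called members with a site spanning the start of a listed transcript, which in DIXDC1 was that of the shorter variant. The strongest DIXDC1 site, chr11:111852567-111853312, scored 322, which ranked 111 among all sites, and its midpoint lay 4.91 kb after the start of the shorter variant. A site at chr11:111847598-111848116 with a score of 78.3 spanned the start of that same variant. The shorter DIXDC1 variant was therefore both the more abundant transcript and the one with a site at its start. At FZD1, chr7:90893621-90894114 with a score of 65.4 spanned the start, and chr7:90892688-90892982 with a score of 85.8 lay 0.948 kb upstream. WNT9A had 6 sites with scores of 59.5 to 92.2, of which 1 was intronic. The called members LEF1 and FZD5 had their nearest sites at 258 kb and 119 kb.

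Several members without a called difference lay in regions rich in sites. WNT11, expressed below 1 FPKM, had 10 sites, the highest with a score of 121 at 31.4 kb from its start. AXIN1 also had 10 sites, with scores of 50.1 to 90.5, of which 4 overlapped the gene. DVL3 had an intronic site with a score of 133, and KREMEN1 held an intronic site with a score of 119, 1.13 kb after its start, which also lay within 50 kb of ZNRF3. AXIN2 and TCF7, low in both libraries, had intronic sites with scores of 88.3 and 91.2. By contrast, WNT5A, RYK, ROR2, GSK3B and BCL9 had no site within 50 kb, the nearest being at 1625, 116, 141, 612 and 298 kb.

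**Figure D5:**
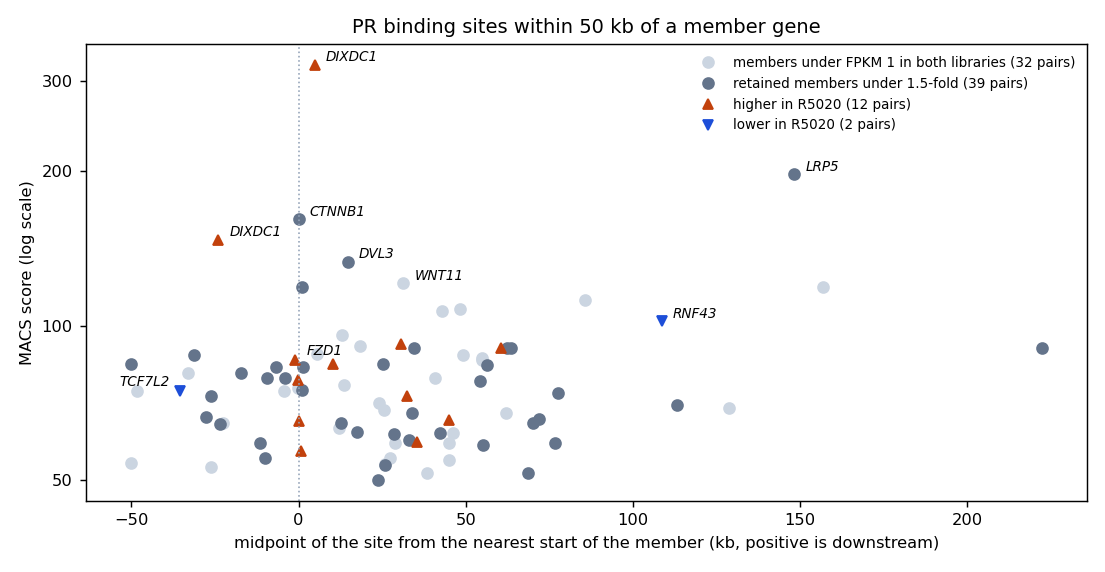
PR binding sites within 50 kb of the members that have one, plotted by the distance of the site's midpoint from the nearest start of the member in kb (positive is downstream) and by MACS score on a log axis, 1 marker per pair of member and site, shaped and coloured by the member's call. The highest-scoring sites belong to DIXDC1 (322), LRP5 (197) and CTNNB1 (161).

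The letters of the sites were searched on both strands for a full element, GNACA and TGTNC separated by 3 bases of any kind, and for its arm AGAACA or TGTTCT, which can lie inside a full match. The full element was found in 0 of the 84 sites near members and in 268 of 11178 sites read from the genome (2.40%), which varied in length with a median of 461 bases. The arm was found in 13 of 84 (15.5%) and in 2819 of 11178 (25.2%). The strongest DIXDC1 site held 3 arms, 2 of which are shown in capitals above, and the RNF43 site held 2. The sites shown for FZD1, WNT9A, TCF7L2, LRP5 and CTNNB1 held neither pattern.

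Among 73 other genes of the Wnt and RANK pathways, 35 were retained, of which 5 (14.3%) were higher, against 7.67% of all retained genes, and 3 (8.57%) lower, against 4.14%. The higher genes were TRAF5, an adaptor of TNF-family receptors (2.85 FPKM in EtOH and 12.9 in R5020), CSNK1A1, a kinase of the destruction complex (50.7 and 89.6), CELSR1, a planar polarity cadherin (6.97 and 11.9), DAAM1, a formin downstream of Dishevelled (10.9 and 17.2), and PYGO1, a beta-catenin cofactor (1.22 and 2.35). The lower genes were FRAT1 (6.19 and 2.10) and FRAT2 (11.6 and 7.05), which bind GSK3, and BCL9L, a relative of BCL9 (19.4 and 10.9). The pathway genes outside the set thus also moved in both directions. Their list, too, was chosen with earlier results of these data known, so its shares are descriptive only. The 9 other Wnt ligands in this list were not retained, the highest being WNT10B at 0.270 and 0.286 FPKM, and RSPO1 to RSPO4, which encode R-spondins, were listed at 0.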

How the data were processed

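RNA-seq was carried out on 1 R5020-treated and 1 EtOH-treated T47D library and PR ChIP-seq on 1 R5020-treated library. Input DNA was not analysed here. The authors aligned 50 nt paired-end RNA reads to hg19 with TopHat, discarded multiply mapped reads, and deposited transcript FPKM and coverage from Cufflinks. They aligned ChIP reads with Bowtie 1.1.2, called peaks with MACS against input, and deposited the sites with a score, -10 times log10 of the MACS p-value. Transcript FPKM was summed per gene and compared as log2 of FPKM + 1 between libraries. The retention limit of 1 FPKM and the 1.5-fold value were taken from the study's methods. The study used its fold threshold together with a p-value cut-off, which was not applied here. Adding 1 to FPKM makes the threshold harder to pass for genes with low values, so the calls are not those of the study. Read equivalents were coverage times length divided by 50 nt. Normalisation to FPKM sets levels relative to the library total, and reads shared by related genes or by overlapping antisense genes may be assigned unevenly. Sites were tied to genes within 50 kb of all listed transcripts and annotated with GENCODE release 44 on GRCh37. Calculations used Python 3.11.15, pandas 2.3.3 and numpy 2.4.6 and were tested on simulated data. No statistical test was possible between single libraries. The 52 members, all of which are named, and the other gene lists were chosen with earlier results of these data known. The alternatives were other pseudocounts, filters, thresholds, scaling, transcript choice, distances and site scores.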

Additional observations from a re-analysis of the deposited data

How the results depend on the processing

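The count of higher members was 5 (7.67% of all retained genes were higher). It was 4 with 1 FPKM required in both libraries (6.47%), without LEF1, and 4 with a 2-fold threshold (3.43%) or with interval midpoints (7.37%), an alternative chosen after seeing the data, both without WNT9A. The count of lower members was 2 (4.14% of all retained genes). It was 5 with a pseudocount of 0.1 (7.14%) and 5 without a pseudocount (7.10%), where FZD2, FZD7 and ROR2 were added (log2 ratios of -0.62, -0.69 and -0.70 with 0.1, and -0.67, -0.77 and -0.72 without). It was 1 with 1 FPKM required in both libraries (2.92%), without RNF43, and 0 at 2-fold of FPKM + 1 (1.31%). Without a pseudocount the log2 ratios of RNF43 and TCF7L2 were -1.08 and -1.07, and that of WNT9A was 1.14, all beyond 2-fold. With interval midpoints the log2 ratio of WNT9A was 0.46, and 26 members were retained, without FZD2 and FZD7. Among the other pathway genes, a 2-fold threshold left 1 higher (TRAF5) and 1 lower (FRAT1). Interval midpoints left 4 of them higher (7.37% of all retained genes), without PYGO1, whose log2 ratio of 0.59 lay just above the threshold. With a pseudocount of 0.1 (7.14%) or none (7.10%) 4 were lower, with NFATC1 added. The log2 ratio of the inhibitor sum was -0.48 without KREMEN1. Members with a PR site numbered 19 (36.5%, against 18.0% of all genes) when the site had to overlap the gene, and 10 (19.2%, against 14.3%) with a score of at least 100. No paired analysis was possible because each condition had 1 library. Spread between cultures is unknown, and low members rest on few reads.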
